A study of Mus musculus with 35 samples.

Results

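Male mouse embryos that lack UTX in the neural crest were compared with wild-type males by RNA-seq of sorted cranial crest cells. The comparison takes 4 libraries, 2 of the male knockout (mko1 and mko2) and 2 of wild type (wt1 and wt2), out of 6 RNA libraries with counts and 35 samples in the series. Male knockouts carried a floxed Utx allele on their only X and Wnt1-Cre, and wild-type males carried Wnt1-Cre without a floxed allele. Female knockouts (fko1 and fko2), floxed on both X chromosomes and carrying Wnt1-Cre, entered the same fit to help estimate the spread. All embryos also carried a Rosa-Tomato reporter that Cre switches on, and were taken at E12.5. Tissue in front of the otic vesicle was dissected, and Tomato-positive cells that kept out the dye DAPI, and so were alive, were sorted. The labels do not say whether a library came from 1 embryo or from a pool, or whether replicates came from separate litters, so p-values here measure only the spread between these libraries.

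UTX, encoded by the X-linked gene Kdm6a (Utx in the older usage), removes methyl groups from lysine 27 of histone H3, a repressive mark laid down by Polycomb, and is also a subunit of the COMPASS-like complexes that methylate H3 lysine 4 at enhancers. Its Y-linked relative Uty is nearly inactive as a demethylase, so males that lose Kdm6a keep a related protein. Cranial neural crest arises at the border of the neural tube, migrates into the face, and gives rise to its bone, cartilage and connective tissue as well as to sensory and autonomic neurons, glia and pigment cells. Wnt1-Cre marks this lineage, but Wnt1 is also expressed in the dorsal neural tube and the midbrain, so a Wnt1-Cre reporter can label central nervous system cells in addition to crest.

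The 4 libraries were of like depth, with 15002409 and 16350892 reads on genes in mko1 and mko2, against 15211999 and 14513993 in wt1 and wt2. They fell into sets that cut across genotype. Reads outside any annotated gene (HTSeq's no_feature line) made up 16.6% in mko2 and 16.8% in wt1, the low set, against 20.9% in mko1 and 21.5% in wt2, the high set. The labels do not name these sets as a batch. Each set held 1 library of each genotype, so the set was entered in the model as a blocking term, and the differences within the sets (mko2 minus wt1, and mko1 minus wt2) are given beside the results. Levels are in CPM, the reads of a gene scaled to library size, with replicate 1 before replicate 2 wherever a pair of values is given.

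The targeted gene itself, Kdm6a, gave reads in all 4 libraries, with 40.5 and 31.9 CPM in mko1 and mko2, against 45.6 and 51.5 CPM in wt1 and wt2. Both knockout libraries lay below both wild-type libraries, and the difference passed the test with the library set in the model (log2 fold change -0.43, SE 0.0921, edgeR adjusted p = 0.0125) but not without it (edgeR adjusted p = 0.199). Cre removes only a stretch of the floxed gene, and a total over all its exons is therefore no check of the deletion. Uty stood at 39.4 and 34.5 CPM in the knockout libraries and 33.3 and 39.4 CPM in the wild-type libraries. These ranges overlapped, and the fitted difference was 0.03 on the log2 scale (SE 0.197, edgeR adjusted p = 0.939).

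With the library set in the model, 3589 of 14521 tested genes passed an adjusted p of 0.05, which is 24.7% of them. Of these, 1744 were higher in the male knockout (12% of genes tested) and 1845 were lower (12.7%). Most differences were small. The median fold of the genes that rose was 1.34 and that of the genes that fell was 0.658, and 580 genes reached a 2-fold difference, 130 of them higher and 450 lower. Without the library set term 340 genes passed (2.34%), 55 higher (0.379%) and 285 lower (1.96%), and all 340 were among the 3589. Leaving out wt2 gave 1122 genes, leaving out wt1 gave 2030 and leaving out mko2 gave 5559. The genes that passed in the same direction under every one of 18 alternative settings numbered 301, of which 40 were higher and 261 lower. Those settings include a test against a 1.2-fold difference, which small changes cannot pass, and a fit that leaves out the abundant noncoding RNAs.

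The differences within the library sets share no library and could be set side by side. Across 14521 genes the difference of mko2 from wt1 and that of mko1 from wt2 had a Pearson r of 0.637 and the same sign in 75.4% of genes. Among the 11498 genes with a mean of at least 5 CPM r was 0.734. Taken by replicate number instead (mko1 with wt1, mko2 with wt2), r was 0.475. These correlations run over genes, which share libraries and are not independent. All 3589 genes that passed had the same sign in both sets, and in 3362 of them both knockout libraries lay beyond both wild-type libraries, where 57.2% of all tested genes had that separation. The test draws on these same libraries and favours genes on which they agree, so these counts are no separate check.

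**Figure D1:**
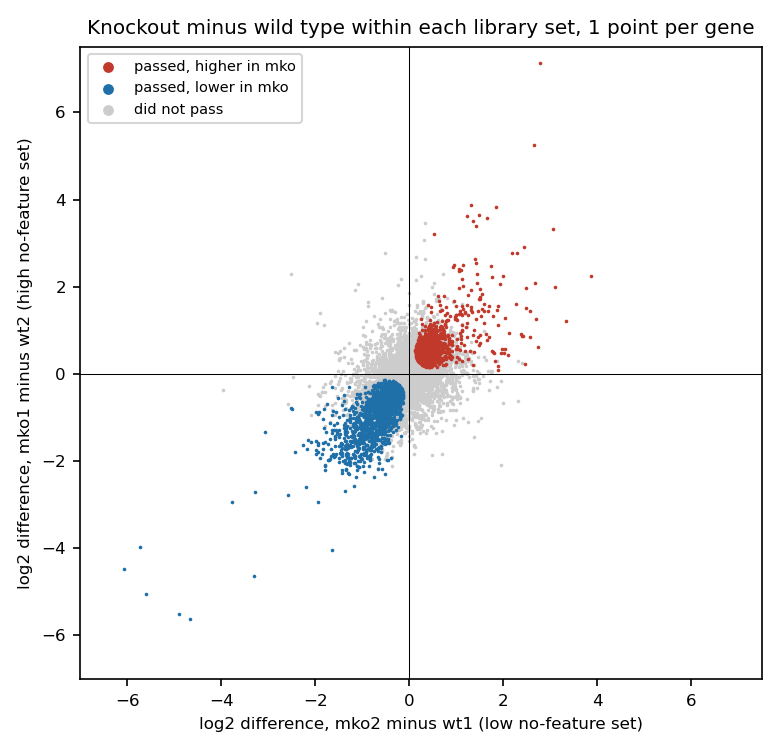
Each point is 1 of 14521 tested genes, placed by its log2 difference between knockout and wild type in the low no-feature set (horizontal, mko2 minus wt1) and in the high set (vertical, mko1 minus wt2), with red for the 1744 genes that passed as higher and blue for the 1845 that passed as lower. Genes that passed lie in the upper right and lower left corners, and more of them lie far out on the lower side.

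The lists with the lowest medians and falls past the threshold were those of the central nervous system. Of 10 tested regulators of the ventral neural tube, 9 were lower and none higher in the male knockout, against 12.7% of all tested genes lower. Their median log2 fold change was -1.70, with -1.51 in the low set and -1.69 in the high set, where the median of all tested genes was 0.011. Foxa1, a forkhead factor of the floor plate, had 5.66 and 2.47 CPM in the knockout libraries, against 13.9 and 19.8 CPM in wild type (log2 fold change -2.09, SE 0.205, edgeR adjusted p = 0.000906). Shh, the secreted signal that patterns the ventral neural tube, had 2.45 and 2.34 CPM in knockout crest and 7.29 and 9.35 CPM in wild-type crest (log2 fold change -1.79, SE 0.238, edgeR adjusted p = 0.00249). In both genes each knockout library was below each wild-type library. Nkx2-2, a homeobox factor of ventral progenitors, stood at 1.98 and 3.23 CPM in the knockout and 7.47 and 12.3 CPM in wild type (log2 fold change -1.86, SE 0.326, edgeR adjusted p = 0.00652), and Olig2, needed for motor neurons and oligodendrocytes, fell by 1.45 (SE 0.198, edgeR adjusted p = 0.00268). Foxa2, a floor plate factor, had 1.84 and 0.759 CPM in knockout crest and 4.12 and 5.96 CPM in wild-type crest (edgeR adjusted p = 0.00322), and Sim1, of the hypothalamus, fell by 1.15 on the log2 scale (SE 0.165, edgeR adjusted p = 0.00321). Summed over the list, the level was 36.8 and 31.96 CPM in the knockout libraries, against 88.9 and 117 CPM in wild type. In bulk cells a smaller share of a cell type and less RNA per cell of that type cannot be told apart. Without the library set term 5 members passed, all lower, and with mko1, mko2, wt1 or wt2 left out in turn 8, 8, 7 and 8 passed as lower.

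Transcription factors of the forebrain and midbrain fell in 19 of 24 cases and rose in none, with a median log2 fold change of -1.30 (-0.91 in the low set and -1.47 in the high set). Otx2, which forebrain and midbrain identity depends on, had 11.9 and 11.01 CPM in the knockout libraries, against 26.5 and 28.2 CPM in wild type (log2 fold change -1.26, SE 0.13, edgeR adjusted p = 0.00107). Each wild-type library was above each knockout library. The dorsal and midbrain factors Barhl1, Barhl2 and Lmx1a fell, with log2 fold changes of -1.68, -1.55 and -1.44 (SE 0.142, 0.16 and 0.16), and Sox1, a marker of neural progenitors, fell by 1.48 (SE 0.182), and edgeR adjusted p lay between 0.000664 and 0.00203. The summed level of the list was 437 and 518 CPM in the knockout libraries, against 838 and 1127 CPM in wild type, with no overlap. Without the library set term 11 members passed, all lower, and with mko1, mko2, wt1 or wt2 left out it was 17, 20, 18 or 14. Among 9 tested genes of the midbrain-hindbrain boundary the picture was mixed. Wnt1 itself, Gbx2 and Lmx1b fell, by 1.36, 1.05 and 0.91 on the log2 scale (SE 0.243, 0.244 and 0.231, edgeR adjusted p = 0.00687, 0.0165 and 0.0222), while En1, a homeobox gene of the same region, had 14.8 and 13.6 CPM in knockout crest and 11.2 and 8.196 CPM in wild-type crest and rose by 0.56 (SE 0.17, edgeR adjusted p = 0.0398). None of these passed without the library set term.

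**Figure D2:**
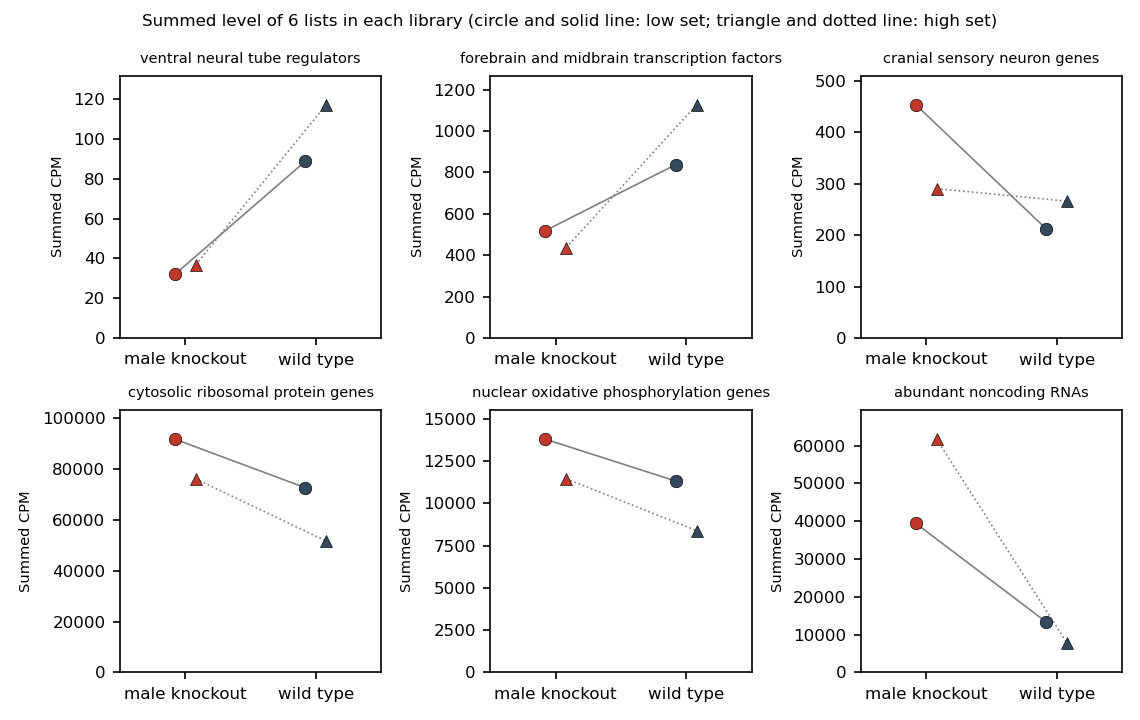
Each panel shows the summed CPM (vertical, from 0) of 1 gene list in the male knockout libraries (red, left) and the wild-type libraries (dark, right), with circles and solid lines for the low no-feature set and triangles and dotted lines for the high set. The central nervous system lists are lower in the knockout in both sets. The ribosomal protein, oxidative phosphorylation and noncoding RNA lists are higher in both sets. For ribosomal protein genes mko1 at 76100 and wt1 at 72610 lie close together, however. For oxidative phosphorylation genes so do mko1 at 11450 and wt1 at 11310.

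Genes of neurogenesis and of differentiated neurons moved in the same direction. Neurog2, a proneural factor, had 9.403 and 10.4 CPM in the knockout libraries, against 33.7 and 35.03 CPM in wild type (log2 fold change -1.79, SE 0.148, edgeR adjusted p = 0.000664). Its target Dll1, the Notch ligand of differentiating neurons, had 9.61 and 12.8 CPM in knockout crest and 31.8 and 46.5 CPM in wild-type crest (log2 fold change -1.78, SE 0.202, edgeR adjusted p = 0.00152). Dll3 and Hes5, a Notch ligand homologue and a Notch effector, fell, with log2 fold changes of -1.61 and -1.08 (SE 0.181 and 0.172, edgeR adjusted p = 0.0014 and 0.00468). In all 4 genes both knockout libraries lay below both wild-type libraries. Of 21 tested proneural and Notch pathway genes 10 fell and none rose, with a median of -0.67, but the median was -0.10 in the low set and -1.02 in the high set. Both counts changed with the libraries, and with mko1, mko2, wt1 or wt2 left out 5, 1, 0 or 0 rose and 8, 16, 11 or 8 fell.

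Of 27 pan-neuronal and synaptic genes 16 fell and 2 rose, 59.3% and 7.41% against 12.7% and 12% of all tested genes. The list median was -0.73. Scg5, a chaperone of secretory granules, had 9.27 and 14.2 CPM in the knockout libraries, against 36.9 and 60.6 CPM in wild type (log2 fold change -2.03, SE 0.249, edgeR adjusted p = 0.00203). Celf3, a brain RNA-binding protein, had 40.5 and 53.2 CPM in knockout crest and 119.9 and 153 CPM in wild-type crest (log2 fold change -1.52, SE 0.183, edgeR adjusted p = 0.00202). Map2, the dendritic microtubule protein, stood at 159 and 186 CPM in the knockout and 283 and 412 CPM in wild type (log2 fold change -0.96, SE 0.191, edgeR adjusted p = 0.00967). None of these ranges overlapped. The summed level was 2127 and 3382 CPM in the knockout libraries, against 3524 and 4067 CPM in wild type, so mko2 lay just under wt1. Of the list 4 members passed without the library set term and 10 with DESeq2, all lower, and with mko1, mko2, wt1 or wt2 left out 4, 2, 1 or 2 rose and 14, 23, 17 or 14 fell.

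Some ligands and guidance molecules that the neural tube makes were lower as well. Wnt7b, a Wnt ligand of the forebrain, had 7.43 and 8.42 CPM in the knockout libraries, against 26.2 and 26.7 CPM in wild type (log2 fold change -1.74, SE 0.147, edgeR adjusted p = 0.000664). It was lower by about the same factor in every pairing of libraries. Wnt7a, Wnt8b and Wnt3 fell, with log2 fold changes of -1.24, -1.43 and -1.14 (SE 0.251, 0.338 and 0.303, edgeR adjusted p = 0.0103, 0.0173 and 0.0263), and with Wnt1 these made 5 of 15 tested Wnt ligands lower and none higher. The median of the ligands was 0.15, on the other side of 0, and 10 of the 15 did not pass. Without the library set term 1 ligand passed, and with mko1, mko2, wt1 or wt2 left out 1, 2, 0 or 0 rose and 4, 5, 5 or 3 fell. Of 50 axon guidance and ephrin genes 17 fell and 2 rose, 34% and 4% against 12.7% and 12% of all tested genes. The list median was -0.09 (0.01 after centring each library on its trend with gene span). Without the library set term 1 passed, as lower, and with mko1, mko2, wt1 or wt2 left out 3, 8, 2 or 0 rose and 18, 18, 12 or 10 fell. Slit1, a secreted repellent of midline-crossing axons, had 8.65 and 5.57 CPM in knockout crest and 17.7 and 21.4 CPM in wild-type crest (log2 fold change -1.49, SE 0.165, edgeR adjusted p = 0.0014). The semaphorin co-receptors Plxna1, Plxna2 and Plxna3 fell, with log2 fold changes of -0.53, -0.63 and -0.63 (SE 0.0744, 0.0856 and 0.0799, edgeR adjusted p = 0.00292, 0.00268 and 0.0021), and none of the 3 passed without the library set term. The Hedgehog receptor Ptch1, which is also a target of the pathway, fell by 0.42 (SE 0.0801, edgeR adjusted p = 0.00817). Of 12 tested Hedgehog pathway genes 2 fell and 1 rose, 16.7% and 8.33% against 12.7% and 12% of all tested genes. Their median was -0.10 (0.008 after centring on span). None of the 12 passed without the library set term.

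Among crest derivatives, cranial sensory neuron genes went the other way. Of 17 tested, 5 rose and 1 fell, against 12% and 12.7% of all genes. Hmx1, a homeobox factor of cranial sensory ganglia, had 8.72 and 9.94 CPM in the knockout libraries, against 2.34 and 3.52 CPM in wild type (log2 fold change 1.67, SE 0.228, edgeR adjusted p = 0.00272). Scn10a, a sodium channel of nociceptors, stood at 9.68 and 17.6 CPM in the knockout and 3.93 and 4.995 CPM in wild type (log2 fold change 1.58, SE 0.261, edgeR adjusted p = 0.00546). In both genes each knockout library was above each wild-type library, and in Scn10a mko2 was well above mko1. Tlx3 and Prph, a sensory selector gene and a filament of peripheral neurons, rose by 1.18 and 1.71 (SE 0.266 and 0.401, edgeR adjusted p = 0.0148 and 0.0166), and Ntrk3, the neurotrophin-3 receptor, fell by 0.55 (SE 0.159, edgeR adjusted p = 0.035). The sets differed, with a list median of 1.35 in the low set and 0.09 in the high set, and the summed level was 290.5 and 454 CPM in the knockout libraries, against 212 and 266 CPM in wild type. The rises numbered 9, 5, 3 or 8 and the falls 0, 1, 0 or 0 with mko1, mko2, wt1 or wt2 left out.

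Autonomic genes gave 3 falls and 1 rise of 8 tested, and with mko1, mko2, wt1 or wt2 left out 1, 1, 1 or 0 rose and 2, 4, 3 or 3 fell. Slc18a2, Ddc and Th, which load and make catecholamines and are shared with midbrain dopamine neurons, fell, with log2 fold changes of -1.70, -1.35 and -1.36 (SE 0.191, 0.182 and 0.312, edgeR adjusted p = 0.00143, 0.00265 and 0.0157). Hand2, a bHLH factor of sympathetic precursors and of jaw mesenchyme, had 6.68 and 4.81 CPM in knockout crest and 3.104 and 1.86 CPM in wild-type crest (log2 fold change 1.19, SE 0.305, edgeR adjusted p = 0.0231). Of 15 Schwann cell and glial genes only Pou3f1 passed, at 7.495 and 8.54 CPM in the knockout and 16.1 and 20.3 CPM in wild type (log2 fold change -1.17, SE 0.17, edgeR adjusted p = 0.00334), and it is also a factor of neural progenitors. Of 8 melanocyte genes only Kit, the stem cell factor receptor, passed (log2 fold change -0.58, SE 0.175, edgeR adjusted p = 0.0398). With mko1, mko2, wt1 and wt2 left out in turn, 2, 1, 0 and 1 glial and 0, 2, 1 and 0 melanocyte genes passed as higher and 1, 2, 2 and 1 and 0, 2, 2 and 0 as lower. The medians of the glial and the melanocyte list were 0.03 and 0.34. In the main fit falls made up 37.5% of the autonomic and 6.67% of the glial list, against 12.7% of all tested genes. The share of autonomic genes that rose was close to the 12% of all tested genes that rose. The share of melanocyte genes that fell was likewise close to the 12.7% of all tested genes. Hand2 and Kit are therefore results for single genes and not for their lists.

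Facial mesenchyme is the main product of cranial crest. Of 52 tested transcription factors of facial mesenchyme 12 rose and 5 fell, 23.1% and 9.62% against 12% and 12.7% of all tested genes. Twist2, a bHLH factor of dermis and mesenchyme, had 111 and 112 CPM in the knockout libraries, against 57.1 and 46.4 CPM in wild type (log2 fold change 1.11, SE 0.0932, edgeR adjusted p = 0.000664). Pax1, a paired box factor of the pharyngeal pouches and of mesenchyme, had 86.3 and 104 CPM in knockout crest and 48.97 and 46.9 CPM in wild-type crest (log2 fold change 0.98, SE 0.0904, edgeR adjusted p = 0.000819). Osr1, a zinc finger factor of palate mesenchyme and kidney precursors, stood at 63.4 and 59.8 CPM in the knockout and 38.6 and 40.3 CPM in wild type (log2 fold change 0.64, SE 0.0992, edgeR adjusted p = 0.00426). In all 3 the knockout pair agreed closely and lay above the wild-type pair, and these were the list members that passed under all 18 alternative settings. Gsc and Six2, regulators of jaw and midface, rose by 0.78 and 0.43 (SE 0.153 and 0.0887, edgeR adjusted p = 0.00933 and 0.0105). Dlx2, a factor of branchial arch mesenchyme, fell by 0.74 (SE 0.168, edgeR adjusted p = 0.0148), and it did not pass without the library set term. The list median was 0.17, and the rises numbered 12, 25, 13 or 4 and the falls 9, 5, 4 or 2 with mko1, mko2, wt1 or wt2 left out.

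Of 25 neural crest specifiers 7 rose and 1 fell, 28% and 4% against 12% and 12.7% of all tested genes. Twist1, the bHLH factor that holds crest in a mesenchymal state, had 273 and 270.4 CPM in the knockout libraries, against 199 and 191 CPM in wild type (log2 fold change 0.48, SE 0.0825, edgeR adjusted p = 0.00616). Snai1 and Snai2, the zinc finger repressors of epithelial state, rose by 0.46 and 0.41, and Cdh11, a mesenchymal cadherin, by 0.37 (SE 0.102, 0.0897 and 0.0779, edgeR adjusted p = 0.0139, 0.0136 and 0.0114). Zic1, which the dorsal neural tube also expresses, stood at 49.9 and 55.6 CPM in the knockout and 74.1 and 115 CPM in wild type (log2 fold change -0.81, SE 0.156, edgeR adjusted p = 0.00864). The knockout libraries were above wild type in the rising genes and below in Zic1, but no specifier passed without the library set term, and the rises numbered 8, 8, 4 or 2 and the falls 1, 3, 2 or 1 with mko1, mko2, wt1 or wt2 left out. The sum over the list was 2461 and 2375 CPM in the knockout libraries, against 2003 and 2116 CPM in wild type. Among the 8 markers used to check the crest label, all were read in every library, with a sum of 3758 and 3207 CPM in the knockout libraries, against 3126 and 3147 CPM in wild type.

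In lists of tissues derived from crest the shares that passed were near or under those of all tested genes. Of collagen genes 2.44% rose and 9.76% fell, against 12% and 12.7% of all tested genes. These shares were 5.56% each for cartilage genes and 10% each for osteoblast genes. For pericyte and smooth muscle genes they were 14.3% and 7.14%. Of 18 cartilage genes, Hapln1, which links proteoglycan to hyaluronan, had 55.5 and 49.6 CPM in the knockout libraries, against 24.8 and 23.2 CPM in wild type (log2 fold change 1.12, SE 0.229, edgeR adjusted p = 0.0106) and Fgfr3, the growth plate receptor, had 29.5 and 22.03 CPM in knockout crest and 39.1 and 48.6 CPM in wild-type crest (log2 fold change -0.77, SE 0.0986, edgeR adjusted p = 0.00217). These were the members that passed, 1 in each direction, and neither pair of ranges overlapped. The rises among cartilage genes numbered 2, 6, 9 or 1 and the falls 3, 1, 1 or 4 with mko1, mko2, wt1 or wt2 left out. Of 10 osteoblast genes Col1a1 fell by 0.44 (SE 0.0982, edgeR adjusted p = 0.0138) and Spp1, osteopontin, rose by 1.85 (SE 0.43, edgeR adjusted p = 0.0163). Of 41 collagen genes 4 fell and 1, Col26a1, rose, and the falls numbered 13, 6, 1 or 6 and the rises 2, 6, 2 or 0 with mko1, mko2, wt1 or wt2 left out. Among 14 pericyte and smooth muscle genes Rgs5, a pericyte regulator of G protein signalling, had 11.7 and 8.16 CPM in knockout crest and 4.12 and 4.67 CPM in wild-type crest (log2 fold change 1.17, SE 0.187, edgeR adjusted p = 0.00492), Tagln, a smooth muscle actin-binding protein, rose by 0.78 (SE 0.121, edgeR adjusted p = 0.00426) and Notch3 fell by 0.45 (SE 0.0888, edgeR adjusted p = 0.00901).

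Of the signalling lists, that of retinoic acid held the highest share of rises, 42.9% against 12% of all tested genes. Rises made up 19.05% of BMP pathway genes and 10.5% of Wnt target and feedback genes. Falls made up 17.65% of FGF pathway genes, 4.76% of BMP pathway genes and 5.26% of Wnt target genes, against 12.7% of all tested genes. Of 21 BMP pathway genes 4 rose, the target genes Id1, Id2 and Id3 and the decoy receptor Bambi, and the receptor Bmpr2 fell. Id3, an inhibitor of bHLH factors, had 222 and 249 CPM in the knockout libraries, against 159.6 and 105 CPM in wild type (log2 fold change 0.86, SE 0.108, edgeR adjusted p = 0.00204). Id1 rose by 0.64 and Bambi by 0.69 (SE 0.0873 and 0.129, edgeR adjusted p = 0.00269 and 0.0081). The rises numbered 4, 7, 4 or 2 and the falls 1, 2, 0 or 0 with mko1, mko2, wt1 or wt2 left out. Of 14 retinoic acid pathway genes 6 rose and none fell. Dhrs3, a retinaldehyde reductase, had 15.5 and 16.01 CPM in knockout crest and 8.93 and 9.41 CPM in wild-type crest (log2 fold change 0.78, SE 0.145, edgeR adjusted p = 0.00782) and also passed without the library set term (edgeR adjusted p = 0.0489). Rarb, a receptor that is itself a target, rose by 0.52, and the synthetic enzyme Aldh1a2 and the degrading enzyme Cyp26b1 rose by 0.37 and 0.38 (SE 0.106, 0.0828 and 0.101, edgeR adjusted p = 0.0102, 0.0148 and 0.0263). The rises numbered 7, 7, 5 or 3 and the falls 1, 0, 0 or 0 with mko1, mko2, wt1 or wt2 left out. Of 17 FGF pathway genes 3 fell, Fgfr3, Spred3 and Etv1, and the falls numbered 3, 3, 2 or 1 and the rises 0, 1, 0 or 0 with mko1, mko2, wt1 or wt2 left out. Dkk1, a secreted Wnt inhibitor, rose by 0.60 (SE 0.116, edgeR adjusted p = 0.00859) among 19 Wnt target and feedback genes, of which 2 rose and 1 fell, and the rises numbered 3, 8, 1 or 0 and the falls 1, 0, 0 or 0 with mko1, mko2, wt1 or wt2 left out.

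**Figure D3:**
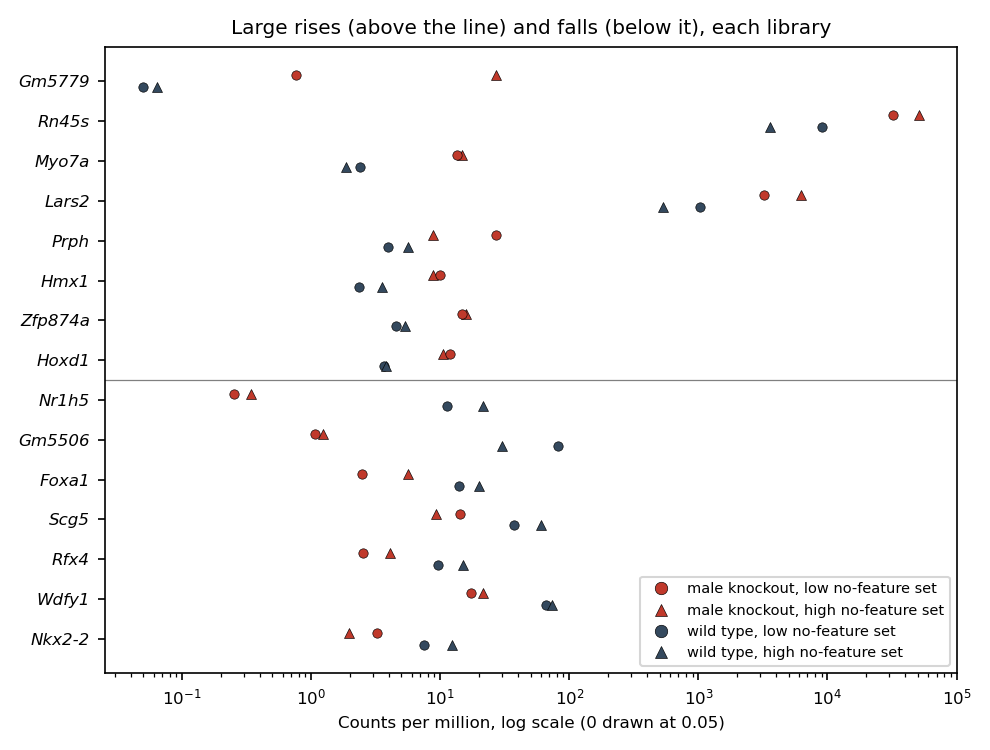
CPM (horizontal, log scale) of 8 of the 12 largest rises (above the line) and 7 of the 12 largest falls (below it) in each library, the ones given in the text, with male knockout in red and wild type in dark, circles for the low and triangles for the high no-feature set. These genes were chosen so that both knockout libraries lie beyond both wild-type libraries. Nr1h5 and Gm5506 lie furthest apart on the lower side.

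Among the largest single changes, Myo7a, an unconventional myosin known from the hair cells of the ear, had 14.8 and 13.6 CPM in the knockout libraries, against 2.41 and 1.86 CPM in wild type (log2 fold change 2.73, SE 0.199, edgeR adjusted p = 0.000385). Hoxd1, a Hox gene used in nociceptors of the mouse, had 10.5 and 11.96 CPM in knockout crest and 3.67 and 3.78 CPM in wild-type crest (log2 fold change 1.59, SE 0.18, edgeR adjusted p = 0.00148), and Hoxd8 rose by 2.29 (SE 0.493, edgeR adjusted p = 0.0127) from few reads. In both, every knockout library lay above every wild-type library. No other of the 7 tested Hox genes of 39 in the table passed. Hoxd8 had 21 and 27 reads in mko1 and mko2, against 4 and 6 in wt1 and wt2. A gene with so few reads could pass the filter on low counts through the knockout libraries alone. Its separation is therefore no separate support, and the tested Hox genes do not stand for all 39. The zinc finger gene Zfp874a had 15.9 and 14.8 CPM in the knockout libraries, against 4.498 and 5.32 CPM in wild type (log2 fold change 1.65, SE 0.154, edgeR adjusted p = 0.000822), and of 336 tested genes named Zfp 20 rose and 41 fell, 5.95% and 12.2% against 12% and 12.7% of all tested genes, so the share of falls was close to that of all genes (7 rises and 17 falls with DESeq2, 2 rises and no falls without the library set term, and with mko1, mko2, wt1 or wt2 left out 14, 22, 9 or 5 rose and 34, 72, 20 or 7 fell). Phlda3, a p53 target that restrains Akt, stood at 22.2 and 22.9 CPM in the knockout and 12.6 and 8.71 CPM in wild type (log2 fold change 1.10, SE 0.153, edgeR adjusted p = 0.00292). It was the only one of 22 p53 targets to pass without the library set term, where 4 rose and 1 fell with it, and the rises numbered 4, 6, 2 or 1 and the falls 0, 3, 1 or 0 with mko1, mko2, wt1 or wt2 left out. With the set term 18.2% of p53 targets rose and 4.55% fell, against 12% and 12.7% of all tested genes. Ctgf, a target of the Hippo pathway and of TGF-beta, had 27.5 and 23.4 CPM in knockout crest and 14.4 and 13.1 CPM in wild-type crest (log2 fold change 0.88, SE 0.136, edgeR adjusted p = 0.00427).

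The deepest fall was that of Nr1h5, a nuclear receptor that senses lanosterol in mouse, at 0.341 and 0.253 CPM in the knockout libraries, against 11.3 and 21.3 CPM in wild type (log2 fold change -5.73, SE 0.285, edgeR adjusted p = 7e-05). Wdfy1, an endosomal protein with a FYVE domain, had 21.3 and 17.1 CPM in knockout crest and 66.1 and 73.6 CPM in wild-type crest (log2 fold change -1.86, SE 0.101, edgeR adjusted p = 7e-05), and Rfx4, a factor of neural tube patterning, had 4.09 and 2.53 CPM in the knockout and 9.57 and 14.98 CPM in wild type (log2 fold change -1.89, SE 0.185, edgeR adjusted p = 0.000906). Nr1h5 stood at 0.261 and 0.775 CPM and Wdfy1 at 17.04 and 20.1 CPM in fko1 and fko2. H2-K1, a class I histocompatibility gene, fell by 1.73 (SE 0.321, edgeR adjusted p = 0.00791), at 0.954 and 1.33 CPM in knockout crest and 3.86 and 3.65 CPM in wild-type crest. Several genes with large differences are close copies of others, so their reads are uncertain. Gm5506, an enolase-like copy, had 1.23 and 1.08 CPM in the knockout and 80.96 and 29.8 CPM in wild type. Gm5779 had 396 reads in mko1 and 12 in mko2, against 0 and 1 in wt1 and wt2, and the female knockouts had 0.0653 and 28.9 CPM, so 1 library of each knockout group carried nearly all of it and no fold is given. The labels do not give the strain background of the embryos, and its part in the values of Nr1h5, Wdfy1, Gm5506 and Gm5779 was not tested.

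Imprinted genes, of which 28 were tested, gave 8 falls and 1 rise, 28.6% and 3.57% against 12.7% and 12% of all tested genes. Magel2, a paternally expressed gene of the Prader-Willi region that the brain uses, had 29.2 and 25.8 CPM in the knockout libraries, against 66.01 and 91.4 CPM in wild type (log2 fold change -1.50, SE 0.11, edgeR adjusted p = 0.000385). Meg3, a maternally expressed noncoding RNA, had 498 and 391 CPM in knockout crest and 719.8 and 1032 CPM in wild-type crest (log2 fold change -0.96, SE 0.0852, edgeR adjusted p = 0.000803). Peg3, Peg10 and Usp29, all paternally expressed, fell, with log2 fold changes of -0.53, -0.66 and -0.86 (SE 0.109, 0.11 and 0.145, edgeR adjusted p = 0.011, 0.00581 and 0.00607). H19, a maternally expressed noncoding RNA, rose, with 2134 and 2063 CPM in the knockout and 1608 and 1259 CPM in wild type (log2 fold change 0.55, SE 0.12, edgeR adjusted p = 0.0127). Ranges did not overlap in any of these 6, yet only Magel2 passed without the library set term. The median of the list was -0.15, and the falls numbered 9, 10, 5 or 6 and the rises 1, 5, 2 or 0 with mko1, mko2, wt1 or wt2 left out.

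Genes of the UTX and COMPASS list fell more often than they rose, by small amounts. The list is wider than the direct partners of UTX and holds other chromatin regulators such as Chd7 and Kdm6b. Kmt2d was not found among the genes counted. Of 24 genes of the UTX and COMPASS list 12 fell and 1 rose, against 12.7% and 12% of all genes, with a median of -0.22 (-0.24 in the low set, -0.17 in the high set and -0.13 after centring on span). Chd7, the chromatin remodeller mutated in CHARGE syndrome, had 73.7 and 70.8 CPM in the knockout libraries, against 102 and 141 CPM in wild type (log2 fold change -0.73, SE 0.106, edgeR adjusted p = 0.0034). Kdm6b, the other H3K27 demethylase of this family, had 166 and 148 CPM in knockout crest and 199 and 263 CPM in wild-type crest (log2 fold change -0.55, SE 0.0836, edgeR adjusted p = 0.00412). Mll1 and Mll3, H3K4 methyltransferases, and Ep300, the enhancer acetyltransferase, fell, with log2 fold changes of -0.61, -0.46 and -0.49 (SE 0.0743, 0.0835 and 0.0787, edgeR adjusted p = 0.00202, 0.00725 and 0.00492). The knockout pair lay below the wild-type pair in each of these, but no list member passed without the library set term, and the falls numbered 12, 12, 6 or 6 and the rises 0, 6, 0 or 0 with mko1, mko2, wt1 or wt2 left out. Of 27 Polycomb genes 4 fell and 2, Rbbp4 and Rbbp7, rose, and with mko1, mko2, wt1 or wt2 left out 6, 2, 1 or 0 rose and 5, 9, 1 or 0 fell. Of the Polycomb list 7.41% rose and 14.8% fell, against 12% and 12.7% of all genes. The median genomic span was 30.01 kb for the UTX and COMPASS list and 26.3 kb for the Polycomb list, against 24.1 kb for all tested genes.

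Differences followed the length of genes. The span of each gene from first to last base was taken from the GRCm38.p6 gene table for 14466 tested genes. In the decile with the shortest spans, up to 4.153 kb, 25.5% of genes rose and 5.53% fell, with a median log2 fold change of 0.21. In the decile with the longest spans, from 138 kb, 4.42% rose and 24.0% fell, with a median of -0.16. The median declined at every decile in between, in both library sets. The median span was 11.2 kb for genes that rose, 46.6 kb for genes that fell and 24.8 kb for the rest. Across all 14466 genes r between log span and log2 fold change was -0.189, and r was -0.166 without the ribosomal, oxidative phosphorylation, proteasome and histone lists, as a description over genes that share libraries. When each library was centred on the trend with span, an alternative added after these values were seen, 2866 genes passed, 1326 higher and 1540 lower, and 2471 of them were among the 3589.

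**Figure D4:**
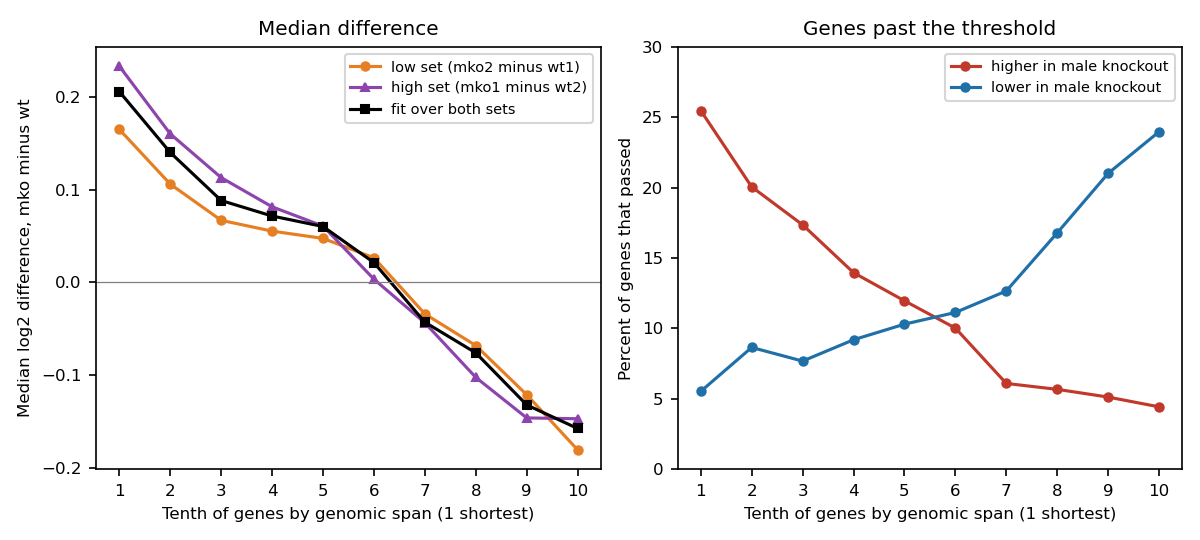
The left panel plots the median log2 difference of the male knockout from wild type (vertical) for deciles of genes ordered by genomic span (horizontal, 1 shortest), in the low set, in the high set and in the fit over both. The right panel plots the percent of genes in each decile that passed as higher (red) or lower (blue), and the lines cross between deciles 5 and 6.

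Cytosolic ribosomal protein genes and nuclear genes of oxidative phosphorylation had the highest shares of rises of all the gene lists. Of 77 tested cytosolic ribosomal protein genes 69 rose and none fell, against 12% of all genes, with a median of 0.42 (0.33 in the low set and 0.50 in the high set). Rps2, a protein of the small subunit, had 1941 and 2301 CPM in the knockout libraries, against 1598 and 1017 CPM in wild type (log2 fold change 0.73, SE 0.112, edgeR adjusted p = 0.00417). Rplp1, a stalk protein of the large subunit, had 1101 and 1316 CPM in knockout crest and 897 and 573 CPM in wild-type crest (log2 fold change 0.75, SE 0.104, edgeR adjusted p = 0.00292). In both, mko1 was above wt1 by less than wt1 was above wt2. None of the 77 passed without the library set term (edgeR adjusted p of Rps2 = 0.209). The rises numbered 71, 74, 45 or 3 and the falls 0, 1, 0 or 0 with mko1, mko2, wt1 or wt2 left out, with the 4 male libraries alone 42 rose, and after centring on span 34 rose, with a median of 0.25. Near-identical ribosomal pseudogenes share reads with these genes, so single values are uncertain.

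Of the nuclear genes of oxidative phosphorylation, 63 of 75 rose and none fell, with a median of 0.37. Ndufa13, a subunit of complex I, had 92.6 and 117 CPM in the knockout libraries, against 86.1 and 55 CPM in wild type (log2 fold change 0.60, SE 0.0945, edgeR adjusted p = 0.00468), and Cox6c, of complex IV, had 179.9 and 239 CPM in knockout crest and 168 and 128 CPM in wild-type crest (log2 fold change 0.49, SE 0.0799, edgeR adjusted p = 0.00498). Of 76 mitochondrial ribosomal protein genes 37 rose, of 37 proteasome subunit genes 26 rose and of 26 ribosome biogenesis genes 9 rose, with none lower in any of these lists. Fbl, the nucleolar methyltransferase fibrillarin, had 161 and 187 CPM in the knockout and 131 and 103 CPM in wild type (log2 fold change 0.58, SE 0.0779, edgeR adjusted p = 0.0025), and Psma5, of the proteasome core, rose by 0.48 (SE 0.0773, edgeR adjusted p = 0.00509). None of the members of these 4 lists passed without the library set term. With mko1, mko2, wt1 and wt2 left out in turn, the rises numbered 57, 73, 30 and 6 for oxidative phosphorylation, 27, 57, 14 and 5 for mitochondrial ribosomal proteins, 23, 30, 6 and 1 for the proteasome and 9, 15, 3 and 2 for ribosome biogenesis. After centring on span they numbered 37, 18, 17 and 5 in the same order of lists, and with DESeq2 52, 16, 18 and 5. With the 4 male libraries alone 16 proteasome genes rose, and 1 ribosome biogenesis gene fell when mko2 was left out.

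Glycolytic enzymes rose in 8 of 15 cases and fell in none, 53.3% and 0% against 12% and 12.7% of all tested genes. The list median was 0.33. Ldha, lactate dehydrogenase A, had 521 and 601 CPM in the knockout libraries, against 429 and 286 CPM in wild type (log2 fold change 0.68, SE 0.0993, edgeR adjusted p = 0.00344). Pgk1, Tpi1 and Pgam1 rose by 0.55, 0.59 and 0.55 (SE 0.1, 0.103 and 0.0873, edgeR adjusted p = 0.00725, 0.00642 and 0.00457). Wild-type libraries differed between each other, with wt2 the lowest of the 4 in each gene named. The wider list of 20 hypoxia response genes gave 6 rises and 1 fall, and Vegfa, the angiogenic factor, was the member that fell, by 0.33 (SE 0.0838, edgeR adjusted p = 0.0232), with overlapping ranges of 95.5 and 74.9 CPM in knockout crest and 89.96 and 125 CPM in wild-type crest. None of either list passed without the library set term, and with mko1, mko2, wt1 and wt2 left out in turn 7, 9, 8 and 2 glycolytic and 5, 6, 3 and 0 hypoxia genes passed as higher. With DESeq2 2 hypoxia genes rose and none fell. In the main fit 30% of the hypoxia list rose and 5% fell, against 12% and 12.7% of all tested genes. After centring on span 6 glycolytic and 5 hypoxia genes rose, and 1 hypoxia gene fell.

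Of 25 S phase genes and 33 mitotic genes 10 each rose and none fell, and the rises made up 40% and 30.3%, against 12% of all tested genes. Pcna, the sliding clamp of DNA polymerases, had 258 and 278 CPM in the knockout libraries, against 213 and 187 CPM in wild type (log2 fold change 0.42, SE 0.0777, edgeR adjusted p = 0.00741). Cdk1, the kinase that drives mitosis, had 118 and 135 CPM in knockout crest and 102 and 82.2 CPM in wild-type crest (log2 fold change 0.47, SE 0.0841, edgeR adjusted p = 0.00706). The median was 0.26 for S phase and 0.24 for mitosis. None of these genes passed without the library set term, and with mko1, mko2, wt1 and wt2 left out in turn 9, 19, 6 and 0 S phase genes and 7, 24, 6 and 0 mitotic genes passed as higher, and 1 mitotic gene passed as lower without mko1. Replication-dependent histone genes, whose messages mostly lack a poly(A) tail, rose in 17 of 30 cases tested, out of 67 in the table, and fell in none, with a median of 1.37. Hist1h2bc had 6.54 and 7.53 CPM in the knockout libraries, against 3.55 and 2.43 CPM in wild type (log2 fold change 1.24, SE 0.198, edgeR adjusted p = 0.00482), and Hist1h2ae had 2.38 and 3.23 CPM in the knockout and 1.08 and 0.6403 CPM in wild type (log2 fold change 1.71, SE 0.307, edgeR adjusted p = 0.00698). Levels were low in every library. Members that passed the filter on low counts could do so through the knockout libraries alone, so their share is not that of all 67. Without the library set term 3 passed, with DESeq2 2 passed, the rises numbered 8, 19, 13 or 3 and the falls 0, 2, 0 or 0 with mko1, mko2, wt1 or wt2 left out, and after centring on span 11 rose and 1 fell.

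Promoters of these rising groups can be read beside the values. The sequences below are the 250 bases before the annotated start, 5′ to 3′ on the gene's strand, from RefSeq with GRCm38.p6 coordinates, which are not those of the mm9 build that the reads were aligned to. They were chosen as examples of 3 short motifs known as targets of factors that act on such genes, and capitals mark each match on either strand. Rps2 (chr17:24719813-24720062, plus strand) and Uqcrh, a complex III gene (chr4:116075071-116075320, minus strand), hold the ETS core CCGGAAG, here as its reverse complement. Ldha (chr7:46845554-46845803, plus strand) holds ACGTG, the core of the hypoxia response element, and CACGTG contains it on both strands at once, so these matches overlap. Hist1h2ae (chr13:23571221-23571470, minus strand) holds the CCAAT box.
Rps2: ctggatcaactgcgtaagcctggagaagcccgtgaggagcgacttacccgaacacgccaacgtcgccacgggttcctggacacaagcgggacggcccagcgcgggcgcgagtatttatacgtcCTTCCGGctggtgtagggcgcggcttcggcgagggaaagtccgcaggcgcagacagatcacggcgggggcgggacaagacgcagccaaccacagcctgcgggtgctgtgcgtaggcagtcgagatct
Uqcrh: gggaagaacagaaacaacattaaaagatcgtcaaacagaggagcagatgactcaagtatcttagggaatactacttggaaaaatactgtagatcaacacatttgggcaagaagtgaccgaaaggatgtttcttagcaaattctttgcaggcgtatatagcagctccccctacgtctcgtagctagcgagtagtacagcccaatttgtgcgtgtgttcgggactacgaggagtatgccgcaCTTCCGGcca
Ldha: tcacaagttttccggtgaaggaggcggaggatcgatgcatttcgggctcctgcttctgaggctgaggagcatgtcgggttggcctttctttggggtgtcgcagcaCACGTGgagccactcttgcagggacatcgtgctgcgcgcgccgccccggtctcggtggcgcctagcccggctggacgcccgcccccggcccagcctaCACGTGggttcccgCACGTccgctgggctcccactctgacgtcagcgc
Hist1h2ae: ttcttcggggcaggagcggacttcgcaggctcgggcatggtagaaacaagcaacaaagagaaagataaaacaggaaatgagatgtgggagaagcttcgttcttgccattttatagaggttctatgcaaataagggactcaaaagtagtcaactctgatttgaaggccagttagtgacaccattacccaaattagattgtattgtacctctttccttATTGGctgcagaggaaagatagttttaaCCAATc

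The shares of promoters with a match, in the same 250 bases and on both strands, are those of tested members of each list. CCGGAAG occurred in 14.3% of 11396 tested genes with a promoter sequence, in 31.6% of 57 cytosolic ribosomal protein genes, 25.4% of 67 mitochondrial ribosomal protein genes, 30.0% of 30 proteasome genes and 19.05% of 63 oxidative phosphorylation genes. It was in 17.2% of the 1402 genes that rose and 9.11% of the 1405 that fell, where the shares were 26.8% and 20.7% for ACGTG and 41.9% and 38.3% for the CCAAT box. The hypoxia core ACGTG occurred in 24.6% of tested genes, in 46.7% of 15 glycolysis genes and in 77.8% of 18 hypoxia response genes, a list made of genes known to answer hypoxia. CCAAT occurred in 40.7% of tested genes, in 85.2% of 27 tested histone genes and in 78.6% of 28 mitotic genes. Over all 27025 promoters the shares were 7.83% for CCGGAAG, 18.5% for ACGTG and 37.5% for CCAAT. A match describes letters only and does not show that a factor binds.

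A list of abundant noncoding RNAs was kept apart, since such RNAs can take a large share of a library. Rn45s, the precursor of ribosomal RNA, had 50820 and 32370 CPM in the knockout libraries, against 9028 and 3559 CPM in wild type (log2 fold change 2.83, SE 0.385, edgeR adjusted p = 0.00268). Lars2, the mitochondrial leucyl-tRNA synthetase gene, a coding gene kept on this list, had 6255 and 3225 CPM in knockout crest and 1027 and 528 CPM in wild-type crest (log2 fold change 2.59, SE 0.356, edgeR adjusted p = 0.0028), and Rmrp, the RNA of RNase MRP, had 10.3 and 4.81 CPM in the knockout and 1.65 and 0.704 CPM in wild type (log2 fold change 2.59, SE 0.419, edgeR adjusted p = 0.00499). All 3 were highest in mko1 and lowest in wt2. In the low and high sets the log2 differences were 1.65 and 3.57 for Lars2, beside 1.84 and 3.84 for Rn45s. Counts per gene do not show which part of Lars2 the reads cover. Whether they stand for its coding message was not tested. Malat1, a nuclear RNA, rose by 0.56 (SE 0.0844, edgeR adjusted p = 0.00367), and Meg3 was the list member that fell. Of 10 tested, 7 rose and 1 fell, and the summed level was 61700 and 39430 CPM in the knockout libraries, against 13320 and 7696 CPM in wild type. Reads that aligned to several places made up 24.3% and 24.4% in mko1 and mko2, against 21.3% and 22.5% in wt1 and wt2, and the part of this in any result was not tested. The 10 genes with most reads took 8.81% and 7.08% of reads in mko1 and mko2, against 4.40% and 3.27% in wt1 and wt2. With these noncoding RNAs left out of the fit 3479 genes passed. Of 44 snoRNA and scaRNA genes tested 2 rose and 2 fell, 4.545% each, against 12% and 12.7% of all tested genes.

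Stress lists were mixed. Of integrated stress response genes 22.2% rose and 11.1% fell, against 12% and 12.7% of all tested genes. These shares were 42.1% and 0% for chaperone genes and 13.04% and 17.4% for cholesterol synthesis genes. For immediate early and dissociation genes they were 4.76% and 9.52%. Of 19 heat shock and endoplasmic reticulum chaperone genes 8 rose and none fell, among them Hspa8, a constitutive chaperone, at 2754 and 3199 CPM in the knockout libraries, against 2455 and 1950 CPM in wild type (log2 fold change 0.44, SE 0.0928, edgeR adjusted p = 0.0117) and Xbp1, a factor of the unfolded protein response, at 0.52 (SE 0.095, edgeR adjusted p = 0.00746). Of 18 integrated stress response genes 4 rose and 2 fell. Asns, asparagine synthetase, rose by 0.58 (SE 0.0923, edgeR adjusted p = 0.00491), while Atf4, the factor that drives the response, fell by 0.26 (SE 0.0748, edgeR adjusted p = 0.033). Of 23 cholesterol synthesis genes 3 rose and 4 fell. None of the members of these 3 lists passed without the library set term, and with mko1, mko2, wt1 and wt2 left out in turn 8, 13, 3 and 1 chaperone genes, 5, 8, 3 and 1 stress response genes and 1, 4, 0 and 0 cholesterol genes passed as higher. Those that passed as lower numbered 0, 1, 0 and 0, 2, 2, 0 and 1 and 3, 9, 4 and 0 in the same order of lists, and after centring on span no cholesterol gene rose and 5 fell. Among 21 immediate early and dissociation genes, Ctgf rose, and Btg2 and Dusp1 fell, with log2 fold changes of -0.40 and -0.47 (SE 0.111 and 0.146, edgeR adjusted p = 0.031 and 0.0431), and with mko1, mko2, wt1 or wt2 left out 3, 3, 2 or 1 rose and 1, 3, 3 or 0 fell.

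Markers of cells that the sort should have left out gave few differences past the threshold, and so did those of choroid plexus, a neural list that the sort could hold. No gene of the erythroid, macrophage, epithelial, skeletal muscle or choroid plexus lists passed, and of 11 endothelial genes Egfl7 alone did, higher by 0.57 (SE 0.178, edgeR adjusted p = 0.0457). That was 9.09% of the endothelial list, against 12% of all tested genes higher. List medians were 0.83 for erythroid, -0.755 for macrophage, 0.36 for epithelial and -0.18 for skeletal muscle genes. They were -0.10 for endothelial and -0.04 for choroid plexus genes. Lists without genes past the threshold are therefore not shown to be unchanged. Of 7 tested erythroid genes 5 passed as higher without mko1, 1 without wt2 and 4 with the 4 male libraries alone and the set. Of 9 macrophage genes 1 passed as lower without mko2, 1 without wt2 and 2 with the 4 male libraries alone, and of 11 epithelial genes 1 passed as higher without mko2 and 2 without wt1. Of 7 choroid plexus genes 1 passed as higher without mko1 and 1 without wt2. Summed over each list, skeletal muscle genes had 7.56 and 7.72 CPM in the knockout libraries, against 8.996 and 9.61 CPM in wild type. Macrophage genes had 9.68 and 10.2 CPM in the knockout libraries, against 17.9 and 14.4 CPM in wild type, and epithelial genes had 25.6 and 26.6 CPM in the knockout libraries, against 26.5 and 17.4 CPM in wild type. Erythroid genes had 324 and 1366 CPM in the knockout libraries, against 516 and 311 CPM in wild type, so mko2 stood apart from the other libraries, with 5 and 2 of 13 list members at 0 in mko1 and mko2, against 4 in each wild-type library. Hbb-bh1, an embryonic globin, had 15.8 and 70.7 CPM in knockout crest and 22.1 and 15.1 CPM in wild-type crest, which overlapped. Choroid plexus genes had 116 and 114 CPM in the knockout libraries, against 92.05 and 118 CPM in wild type. The part of any of these cells in the results above was not tested.

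**Figure D5:**
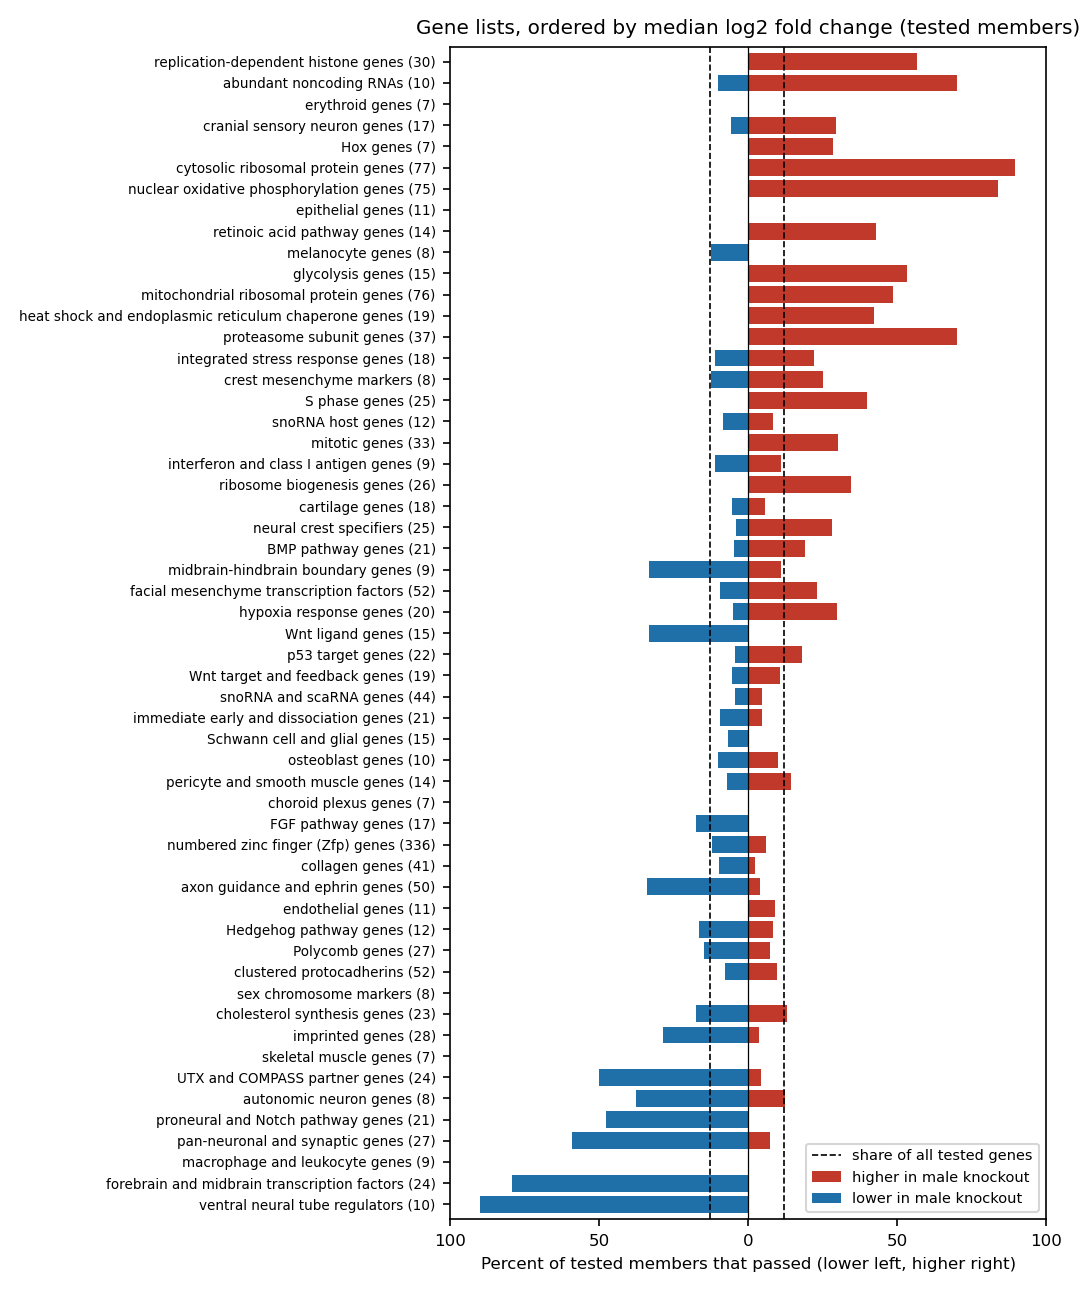
Bars give, for each gene list, the percent of its tested members (number in brackets) that passed as higher (red, right) or lower (blue, left) in the male knockout with the library set in the model, ordered by the list's median log2 fold change. Dashed lines mark the 12% and 12.7% of all tested genes, and the central nervous system lists at the bottom and the ribosomal protein and oxidative phosphorylation lists lie far beyond them.

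The male knockout could also be set against the female knockout in the same fit of 6 libraries, though sex goes with that contrast. Of 14521 genes 7 passed with the library set in the model, which is 0.0482%, 4 higher (0.0275%) and 3 lower (0.0207%), and 613 had an unadjusted p under 0.05. Ddx3y, Eif2s3y, Kdm5d and Uty on the Y were higher in the male knockout, and Xist, which silences the second X of females, was lower. Off the sex chromosomes, Robo3, a receptor that lets commissural axons cross the midline, stood at 18.6 and 9.05 CPM in mko1 and mko2, 19.5 and 50.3 CPM in fko1 and fko2 and 25.1 and 65.95 CPM in wt1 and wt2. Its level followed the library set in all 3 groups, with the high-set library (mko1, fko2 and wt2) above its partner, and the log2 difference of male from female knockout was -1.29 (SE 0.125, edgeR adjusted p = 0.00584). Against wild type Robo3 fell in the male knockout by 1.67 on the log2 scale (SE 0.123, edgeR adjusted p = 0.000385). Ttr, a thyroid hormone carrier of the choroid plexus, had 49.8 and 53.5 CPM in the male knockout, 104 and 123 CPM in the female knockout and 34.1 and 46.6 CPM in wild type, and the male knockout was below the female by 1.12 (SE 0.121, edgeR adjusted p = 0.0124). Neither passed without the library set term. Leaving out mko1 gave 352 genes and leaving out mko2 gave 530, with the lone male knockout library taken to have the spread of the other groups, and leaving out any of the other libraries gave 13 to 21.

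Male and female knockouts were each compared with the same wild-type libraries, so their values are only set side by side. Neurog2 had 9.403 and 10.4 CPM in mko1 and mko2, 7.96 and 10.01 CPM in fko1 and fko2 and 33.7 and 35.03 CPM in wt1 and wt2. Twist2 had 111 and 112 CPM in the male knockout, 88.8 and 78.6 CPM in the female knockout and 57.1 and 46.4 CPM in wild type, and Pax1 had 86.3 and 104, 66.5 and 55.2 and 48.97 and 46.9 CPM in the same order of groups. For Pax1 both male knockout libraries were above both female knockout libraries, a difference that did not pass in the test of male against female knockout. Kdm6a had 40.5 and 31.9 CPM in the male knockout, 52.9 and 62.4 CPM in the female knockout and 45.6 and 51.5 CPM in wild type, and the female values were the highest.

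Genes on the X chromosome passed about as often as others, 116 of 516 tested or 22.5%, against 24.7% of all genes. None of the 8 tested sex chromosome markers passed between the male groups, where both are male. Eif2s3x and Kdm5c, which escape X inactivation in females, had log2 differences of 0.17 (SE 0.0794, edgeR adjusted p = 0.137) and -0.13 (SE 0.082, edgeR adjusted p = 0.263).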

How the data were processed

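The authors deposited a table of read counts per gene for 6 RNA libraries of sorted cells, not normalised, with 5 HTSeq summary lines that were left out of library sizes and tests. Per the submitters' processing notes the reads passed through Trimmomatic, TopHat2 and HTSeq, with Bowtie2, MACS2, SAMtools and bedtools also listed, on build mm9; the list covers all assays and gives no order. Versions, the strand setting and the annotation are not given in the sources used here, and reads of genes that overlap in antisense are uncertain. Histone and UTX files were not used.

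Counts were tested with edgeR 4.0.16 in R 4.3.3 (quasi-likelihood F test, TMM factors, filterByExpr by group), with 3 group means and the library set, and p was adjusted by Benjamini-Hochberg over 14521 genes with a threshold of 0.05. The fit of 6 libraries left 2 residual degrees of freedom and 7.14 prior degrees of freedom. Sets were split at the largest gap in the no_feature share. The set is the crossed pairing, not the pairing by number. Over genes, mko1 minus mko2 correlated with wt1 minus wt2 at -0.237. Pairing by set reverses 1 of these differences, so its value of 0.237 is the same number with the sign changed. It is no separate support for the set. Differences within sets are log2 CPM with a prior count of 2. A lone library left in a group by leaving out its partner is taken to have the spread of the other groups. DESeq2 1.42.0 and limma-voom (limma 3.58.1) were alternatives.

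Of 23366 genes, 21525 matched the GRCm38.p6 table by symbol, 1685 by synonym and 156 not at all. Of 800 list members 3 were not found, Ahsp, Rn7sk and Kmt2d. The library set, the 55 gene lists and the named genes were chosen with earlier results of these data known. Named genes are Kdm6a and Uty, the 12 largest rises and 12 largest falls that passed, averaged 5 CPM or more and had no overlap, in each list as many as 6 members past the threshold by smallest p (2 where none passed), and those between male and female knockout by the same rule. Several of them are left out of the text. Figures used matplotlib 3.10.9.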

Additional observations from a re-analysis of the deposited data

Results flagged for a closer look

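The male and female knockouts, both set against wild type, differed by a test of the difference itself in 7 genes, given as log2 differences of male from female knockout. Ddx3y stood at 6.92, Eif2s3y at 6.22, Kdm5d at 6.51 and Uty at 6.80, all on the Y, and Xist at -10.83. Robo3 stood at -1.29 and Ttr at -1.12, with edgeR adjusted p of 0.00584 and 0.0124. Sex goes with this contrast. Reads that aligned to several places, which enter no gene count, made up 24.27% in mko1 and 24.42% in mko2, above the 22.45% of the higher wild-type library. The female knockouts were above it too, with 24.26% in fko1 and 23.18% in fko2.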

How the results depend on the processing

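The count of genes that passed between male knockout and wild type was 3589 and lay between 1122 and 5559 when 1 library was left out. It was 340 without the library set term, 481 with a replicate block in place of the set, 2048 with DESeq2 and 980 when tested against a 1.2-fold difference. With the 4 male libraries alone it was 938 without a set term and 959 with the replicate block, against 3018 with the set. All 340 genes without the set term and 476 of 481 with the replicate block were among the 3589. RLE and upper quartile factors, no filter on low counts, limma-voom, leaving out the noncoding RNAs and centring on span gave 3536, 3471, 3673, 3639, 3479 and 2866. In fits without the set term, added after the data were seen, leaving out mko1 left 3 genes, mko2 2, wt1 897 and wt2 158, a range of 2 to 897.

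Between male and female knockout 7 genes passed, 14 without a filter, 13 with DESeq2, 5 without the set term, 5 with the replicate block and 13 to 530 when 1 library was left out.

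Of 252 named genes tested 239 passed, 56 of them also without the set term, and none that passed changed direction under any alternative run. Uty, which did not pass, ranged over -0.052 to 0.0976 when 1 library was left out (-0.041 without mko2, -0.052 without wt2), and stood, without the set term, at -0.073 without mko1 and -0.0904 without wt1. Hbb-bh1 and Alas2, which did not pass, stood at -0.23 and -0.27 without the set term and mko2. The cause of these changes was not tested. Residual degrees of freedom were 3 without the set term and 1 with 4 libraries and the set.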

Other observations

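Clustered protocadherins, cell surface molecules that give neurons their identity, were among the lists without a shared direction. In this list 9.62% were higher and 7.69% lower, against 12% and 12.7% of all tested genes. Of 52 tested 5 were higher and 4 lower, at a median log2 fold change of -0.12, and with mko1, mko2, wt1 or wt2 left out 3, 7, 2 or 1 rose and 3, 4, 0 or 1 fell. With DESeq2 2 were higher and 1 lower, and without the library set term 1 was higher. Zfp708, a zinc finger gene on chromosome 13 like Zfp874a, had 13.6 and 14.4 CPM in the knockout libraries, against 6.08 and 6.02 CPM in wild type (log2 fold change 1.21, SE 0.154, edgeR adjusted p = 0.00217), with both knockout libraries above both wild-type libraries. Of 12 snoRNA host genes Snhg6 rose by 0.61 (SE 0.108, edgeR adjusted p = 0.00681) and Snhg5 fell by 0.31 (SE 0.082, edgeR adjusted p = 0.0247). Of 9 interferon and class I antigen genes B2m, the shared light chain, rose by 0.35 (SE 0.102, edgeR adjusted p = 0.0345), while H2-K1 fell. Rises and falls made up 8.33% each of the snoRNA host list and 11.1% each of the interferon list. These shares were under the 12% and 12.7% of all tested genes. No member of either list passed without the library set term.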
